A study of Mus musculus with 11 samples.

Results

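The mRNA levels of 10 genes of neuronal calcium handling were compared between whole brains of mice without the nicotinic receptor's β4 subunit and those of wild-type littermates. The genes are the pore subunits Cacna1a and Cacna1g, the ryanodine receptors Ryr1 and Ryr2, the pump Atp2b2, the calcium sensor Calm2, and the enzymes Camk2b, Ppp3ca, Prkca and Prkce. They were taken by gene symbol, 10 of 8252 genes with a probe set of their own on the array, and include every probe set annotated to just that gene. This gave 11 probe sets, 2 of them for Prkce, of 12422 on the array without control probe sets. All 11 passed the filter on low signal (mean signal over 25.8), as 7453 probe sets did in all.

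Messenger RNA was measured on 11 oligonucleotide arrays, 1 for each untreated C57BL/6J mouse of 6 to 9 weeks. The 6 control mice were wild-type littermates, 4 males and 2 females. The 5 mice of the other group were homozygous null for the β4 subunit (beta4-/-), 2 males of 9 weeks and 3 females of 7 to 8 weeks. No probe set analysed here is annotated to the gene of the β4 subunit, so the genotype labels were not checked through it. Mouse numbers began with B4 in all 5 null and 3 wild-type mice, and with LT in the other 3 wild-type mice. The labels do not explain these letters. All LT mice were 6 weeks old and all B4 mice were older, so the letters and age cannot be told apart. Arrays are called wild-type 1 to 6 and null 1 to 5; wild-type 3 and 5 were female, as were null 3, 4 and 5. Wild-type 4, 5 and 6 were the LT mice.

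Calcium enters neurons through voltage-gated channels when the membrane is depolarised, and ryanodine receptors of the endoplasmic reticulum release more of it from stores. Plasma membrane pumps such as the product of Atp2b2 push it out again. In between, calcium binds calmodulin, which switches on calmodulin-dependent kinases and the phosphatase calcineurin, and with diacylglycerol it activates classical protein kinase C. In brain these proteins couple electrical activity to transmitter release and to the strength of synapses.

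The arrays of the 2 male null mice stood apart from the other 9. The ratio of 3′ to 5′ signal of the Gapdh control probe sets was 0.859 and 0.797 in male null mice, 2.195 to 3.581 in female null mice, and 3.574 to 5.921 in wild-type mice. The same ratio for β-actin was 1.327 to 1.535, 2.886 to 3.968 and 3.585 to 5.447 in these groups. Both ratios differed between the genotypes (two-sided exact permutation test, p = 0.00433 each; the smallest p possible was 0.00216). The first principal component, with 39.7% of the variance, held the male null arrays at 47.2 and 49.2 and the others between −16.3 and −2.03. Of all probe sets tested, 37.2% had both male null arrays above or both below all 9 others. Differences over all mice are therefore also given without these 2 arrays. This does not mark them as faulty, as their 3′ and 5′ control signals were the most nearly equal of all arrays. Leaving them out does not even out the ratios, as those of the female null mice still lay toward or below the low end of the wild-type range. The labels do not say whether any arrays were prepared together.

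The tissue label was set against marker genes. Snap25, a synaptic vesicle fusion protein of neurons, gave 4720 to 7460 signal units over the 11 arrays. Of the skeletal muscle markers, 9 of 10 were on the array, with a summed signal of 246.7 to 384.7 in wild-type and 220.5 to 301.2 in null mice. Of these 9, 5 passed the filter on signal, and Acta1, a muscle actin, read highest, at 62.5 to 98.3. Tnni2 and Myh1, a fast troponin and a fast myosin, never passed 6.2 and 6.7, near the floor of 3.1. Summed neuron markers (9 of 10 genes) gave 10310 to 12900 in wild-type, 12290 to 13240 in female null and 14950 to 15250 in male null mice. Summed Purkinje cell and cerebellum markers (8 of 10 genes) gave 6350 to 7874, 6921 to 7782 and 5678 to 5903 in these groups. Summed microglia markers (7 of 7 genes) gave 1023 to 1431, 1097 to 1208 and 1615 to 1874. Summed forebrain neuron markers (7 of 8 genes) gave 4978 to 6524, 5130 to 5579 and 4062 to 4264, lowest in the male null mice where the general neuron markers were highest. Summed choroid plexus markers (4 of 5 genes) gave 1304 to 2161, 1405 to 1816 and 970.8 to 1256. Summed endothelium markers (7 of 7 genes) gave 913.7 to 1411, 742 to 870.4 and 859.3 to 1056, the 1 list of 12 with a two-sided exact permutation p under 0.05 between genotypes, at 0.0346. Genes within a list did not all move with its sum. Within males limma called 3 of 6 tested microglia markers higher and 1 lower, Tyrobp at −1.02 (adjusted p = 0.00216). It called 7 of 9 neuron markers higher and 0 lower, with Snap25 at −0.31 (adjusted p = 0.11). Of 6 tested forebrain neuron markers 1 was called higher and 2 lower. Of all probe sets 17.8% were called higher and 14.8% lower. The part of these shifts in the results below was not tested. In whole brain, fewer cells of a type and less RNA per cell cannot be told apart.

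The first question was whether the calcium genes differed between null and wild-type brains. None of the 11 probe sets passed the threshold (limma with sex as a covariate, Benjamini-Hochberg adjusted p under 0.05 over 7453 probe sets). The background was 2 probe sets, 0.0268% of those tested. At an unadjusted p under 0.05 the count was 1 of 11, Atp2b2, against 23.1% of all probe sets. Of the 11 log2 differences 5 were above 0 and 6 were below, with a median of −0.10 against 0.04 over all probe sets tested. In none of the 11 were all null arrays above or all below the wild-type arrays, against 1.09% of all probe sets. Without the male null arrays again none passed, and none had an unadjusted p under 0.05 (over all probe sets, 0 of 7453 passed and 3.53% had such a p).

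**Figure D1:**
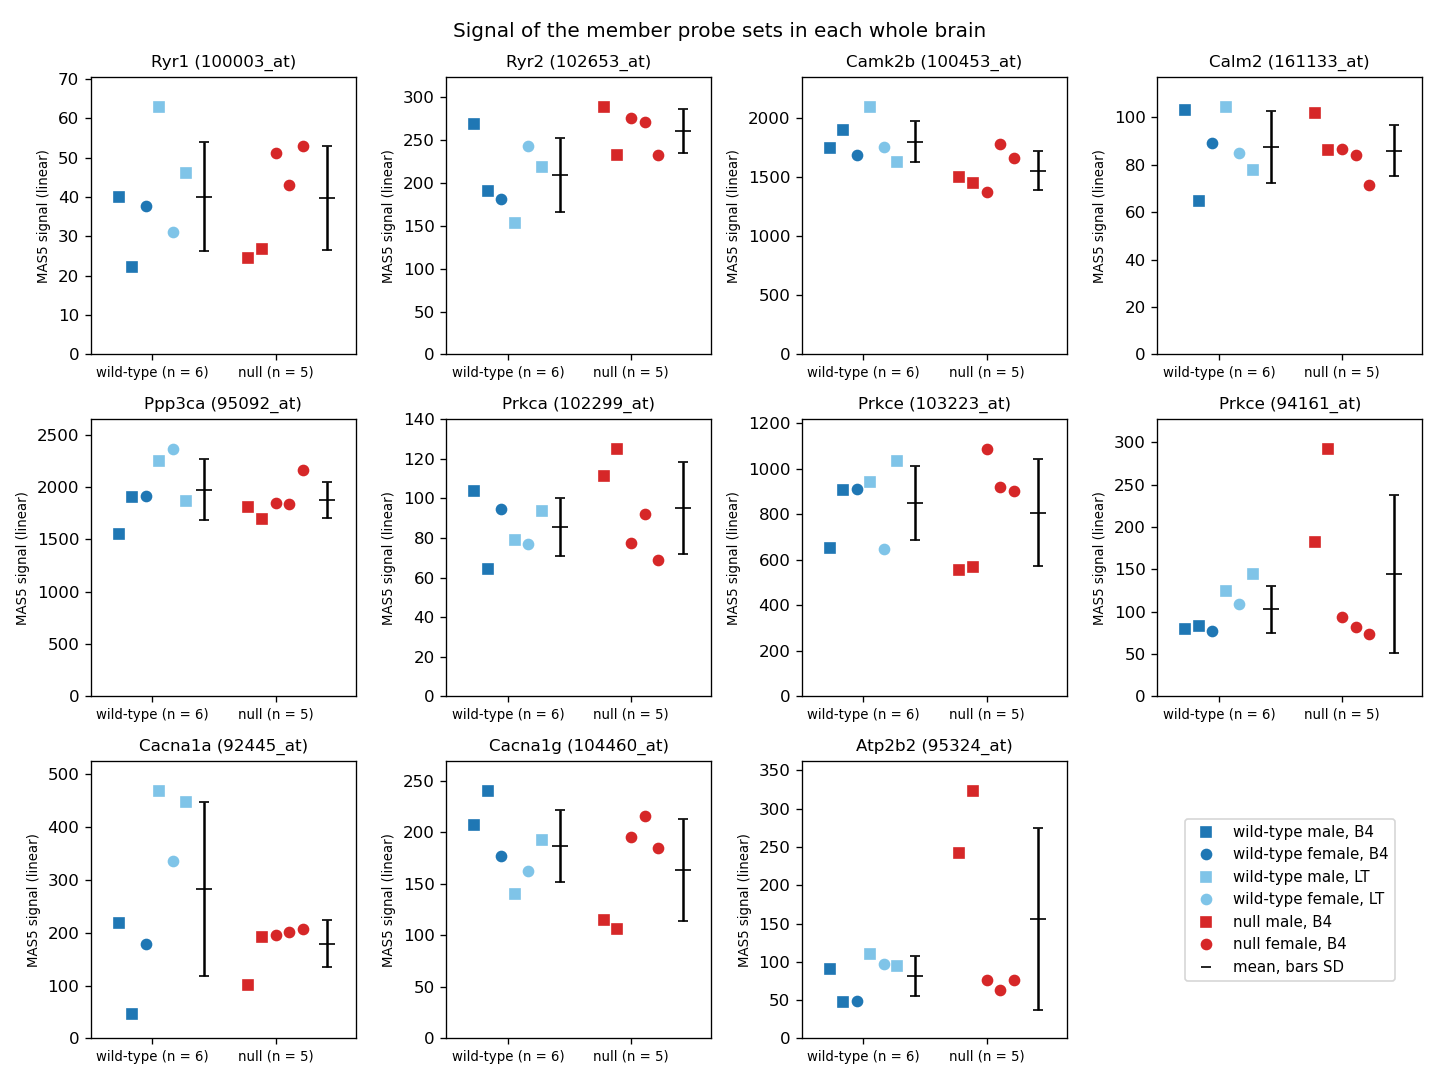
Linear MAS5 signal (vertical axis, from 0) of each of the 11 probe sets in 6 wild-type and 5 null brains; squares are males, circles females, dark blue B4 and light blue LT wild-type mice, red null mice, and the black marks the group mean with SD. The 2 male null squares lie above all other points for Atp2b2, Prkca and Prkce 94161_at and below them for Cacna1g and Prkce 103223_at; for Cacna1a the 3 LT points are the highest.

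Cacna1a encodes the pore of the P/Q-type channel, the main calcium channel of transmitter release at many central synapses and abundant in Purkinje cells. Its probe set, 92445_at, read between 46.5 and 468.5 in wild-type mice, with a median of 277.1. In null mice it read 101.6, 192.6, 195.2, 202 and 206.1. All null values lay inside the wild-type range. Wild-type mice averaged 282 ± 165 (SD, n = 6), and null mice averaged 179.5 ± 43.9 (SD, n = 5). The log2 difference, null minus wild-type, was −0.46 ± 0.50 (SE; limma adjusted p = 0.594). It was −0.29 ± 0.745 without the male null arrays (adjusted p = 0.999). Its direction turned among B4 mice alone, to 0.345 ± 0.415 (adjusted p = 0.624), where both genotypes share the number letters.

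The wide wild-type range of Cacna1a ran along the number letters. The 3 LT mice read 468.5, 336.7 and 446.9, and the 3 B4 mice read 217.5, 46.5 and 178.6. No LT value overlapped a B4 value, as was so for 18.4% of all probe sets tested (9.24% with LT above). The log2 difference among the wild-type mice, LT minus B4, was 1.76 ± 0.47 (SE), 3.39-fold, but missed the threshold (limma with sex as a covariate, adjusted p = 0.122). This comparison was chosen after the values were seen. The SD of the log2 signal over the 6 wild-type arrays was 1.24, larger than in 99.4% of the probe sets tested, whose median was 0.28. The 3 B4 wild-type mice and the 5 null mice overlapped, at 46.5 to 217.5 and 101.6 to 206.1.

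Cacna1g encodes a pore of T-type channels, which open near rest and support burst firing in thalamic and cerebellar neurons. Its probe set read 140.4 to 240.3 in wild-type mice, with a median of 184.5. In null mice it read 114.8 and 105.8 in the males and 195.3, 215.9 and 184.8 in the females. Both male null mice were below every other array, and the female null mice lay within the wild-type range. The difference over all mice was −0.31 ± 0.20 (log2, SE; adjusted p = 0.366). It was −0.80 ± 0.20 within males (adjusted p = 0.00802) and 0.23 ± 0.21 within females (adjusted p = 0.995). Without the male null arrays the difference over both sexes was 0.23 ± 0.22 (adjusted p = 0.999).

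Ryr2 encodes the ryanodine receptor that prevails in heart and in most of the brain. Its probe set read 153.2 to 269.1 in wild-type mice, with a median of 204.8, and 288.9, 233.3, 275.9, 271.1 and 232.9 in null mice. The 3 null mice null 1, 3 and 4, exceeded the highest wild-type mouse, and null 2 and 5 lay inside the wild-type range. Null mice averaged 260.4 ± 25.8 (SD, n = 5), and wild-type mice averaged 209.4 ± 42.8 (SD, n = 6). The log2 difference was 0.33 ± 0.16 (SE; 95% interval −0.02 to 0.67, adjusted p = 0.237), which missed the threshold. It was of like size in each sex, 0.35 ± 0.215 within males and 0.30 ± 0.23 within females, and 0.30 ± 0.23 without the male null arrays. The test of the sexes against each other gave −0.04 ± 0.31 (adjusted p = 0.941).

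Ryr1 encodes the ryanodine receptor of skeletal muscle, which Purkinje cells also make. Its probe set lay near the filter on signal. It read 22.3 to 62.9 in wild-type mice, with a median of 38.95, and 24.6, 26.9, 51.2, 43.1 and 52.9 in null mice. All 5 null values lay inside the wild-type range. The male null mice were the lowest of the null group, and wild-type 2 was lower still. The log2 difference was −0.10 ± 0.31 (SE; adjusted p = 0.874), and without the male null arrays it was 0.51 ± 0.40 (adjusted p = 0.999).

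Atp2b2 encodes a plasma membrane calcium pump strong in cerebellar Purkinje and granule cells and in hair cells. The RefSeq promoter table holds 3 windows for it, for starts that its single probe set, 95324_at, is not known to tell apart. Because its difference was the largest of the 10 genes, the 250 bases before each of these starts are shown, from the RefSeq table of GRCm38.p6. They lie on the minus strand of chromosome 6, at chr6:114042081-114042330, chr6:113934682-113934931 and chr6:113891540-113891789, and are written 5′ to 3′ with each GC box in capitals. The GC box was searched as GGGCGG and, for the other strand, CCGCCC.
Atp2b2 start 1: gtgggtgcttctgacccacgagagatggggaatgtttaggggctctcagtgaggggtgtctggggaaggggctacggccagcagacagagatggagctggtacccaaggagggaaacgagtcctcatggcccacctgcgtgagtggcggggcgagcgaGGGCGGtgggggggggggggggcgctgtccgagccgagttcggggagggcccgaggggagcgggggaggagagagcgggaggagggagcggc
Atp2b2 start 2: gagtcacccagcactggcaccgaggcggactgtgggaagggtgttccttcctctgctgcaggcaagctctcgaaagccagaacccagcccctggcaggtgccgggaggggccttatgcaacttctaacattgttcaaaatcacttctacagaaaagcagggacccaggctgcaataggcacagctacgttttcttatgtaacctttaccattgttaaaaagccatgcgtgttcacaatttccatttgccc
Atp2b2 start 3: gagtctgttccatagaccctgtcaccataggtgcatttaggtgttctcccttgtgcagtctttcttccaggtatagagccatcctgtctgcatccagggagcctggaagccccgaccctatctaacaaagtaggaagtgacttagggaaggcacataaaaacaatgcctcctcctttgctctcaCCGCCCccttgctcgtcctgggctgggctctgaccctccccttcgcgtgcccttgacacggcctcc
The first and the third window each held 1 GC box, and the second held none. Such a box was present in 32.7% of the 32851 windows in the table. None of the 3 windows held a TATA box (TATAAA or TTTATA; 12.4% of all windows). GC content was 69.6%, 52% and 55.6%, against a median of 52.4%. The table gave windows for 5 of the 10 genes, 7 windows in all; besides Atp2b2 these were Ryr1, Ryr2, Camk2b and Prkca. A match is only a run of letters, and nothing was measured at these windows.

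The Atp2b2 probe set read 46.9 to 109.9 in wild-type mice, with a median of 92.85. It read 242.2 and 323.3 in the male null mice and 76.8, 63.7 and 75.7 in the female null mice. The male null values were above every other array, and the female null values lay inside the wild-type range. The log2 difference over all mice was 0.96 ± 0.34 (SE), 1.95-fold, with an unadjusted p = 0.0128 and an adjusted p = 0.131 (limma). Within males it was 1.78 ± 0.335, 3.43-fold higher (adjusted p = 0.0016). Within females it was 0.06 ± 0.35 (95% interval −0.70 to 0.82, adjusted p = 0.995). Without the male null arrays it was 0.06 ± 0.37 (adjusted p = 0.999). Leaving out wild-type 5 brought Atp2b2 past the threshold over all mice, at 1.34 (adjusted p = 0.0258). With that mouse left out, 873 of 7453 probe sets passed, against 2 with all mice.

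Calm2 encodes calmodulin, the small calcium-binding protein that switches on many enzymes. Its probe set read 64.8 to 104.4 in wild-type mice, with a median of 87.1, and 101.9, 86.3, 86.5, 84 and 71.3 in null mice. All null values lay inside the wild-type range. The means were 87.35 ± 15.2 (SD, n = 6) and 86 ± 10.9 (SD, n = 5), and the log2 difference was 0.01 ± 0.17 (SE; 95% interval −0.35 to 0.38, adjusted p = 0.971). It was −0.12 ± 0.245 without the male null arrays (adjusted p = 0.999).

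Camk2b encodes the β subunit of calcium/calmodulin-dependent kinase II, which ties the kinase to actin at synapses. Its probe set read 1627 to 2096 in wild-type mice, with a median of 1749.5, and 1500, 1453, 1376, 1779 and 1665 in null mice. The 3 null mice null 1, 2 and 3, were below the lowest wild-type mouse, and null 4 and 5 were not. The mean was 1802 ± 170.0 (SD, n = 6) against 1555 ± 164 (SD, n = 5). The log2 difference was −0.22 ± 0.11 (SE; 95% interval −0.46 to 0.03, adjusted p = 0.266). The spread in wild-type mice was small, with an SD of 0.13 in log2 signal, at the 7.19th percentile of the probe sets tested. Within males the difference was −0.31 ± 0.14 (adjusted p = 0.0961), and within females −0.11 ± 0.14 (adjusted p = 0.995). Leaving out the male null arrays gave −0.11 ± 0.15 (adjusted p = 0.999). It passed within males when each array was centred on its median, at −0.60 (adjusted p = 0.00571). That scaling moved the median of all probe sets there from 0.05 to −0.23. It called 765 of them higher and 2004 lower, against 1330 and 1103 without it. Under quantile normalization Camk2b was at −0.10 within males (limma adjusted p = 0.574).

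Ppp3ca encodes the α catalytic subunit of calcineurin, the phosphatase that calcium and calmodulin switch on. Its probe set read 1550 to 2363 in wild-type mice, with a median of 1910.5, and 1811, 1696, 1851, 1837 and 2160 in null mice. All null values lay inside the wild-type range. The log2 difference was −0.11 ± 0.12 (SE; 95% interval −0.37 to 0.15, adjusted p = 0.584). It was −0.10 ± 0.15 within males, −0.13 ± 0.16 within females and −0.13 ± 0.17 without the male null arrays.

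Prkca encodes a classical protein kinase C, which needs calcium and diacylglycerol. Its probe set read 64.2 to 103.8 in wild-type mice, with a median of 86.3. It read 111.4 and 125 in male null mice and 77.7, 92.2 and 69.1 in female null mice. The male null mice were above all 9 others, by a small margin over wild-type 1. The log2 difference was 0.21 ± 0.19 (SE; adjusted p = 0.512) over all mice and 0.49 ± 0.225 within males (adjusted p = 0.112). Leaving out the male null arrays gave −0.11 ± 0.25 (adjusted p = 0.999).

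Prkce encodes a protein kinase C that answers to diacylglycerol without binding calcium. Its 2 probe sets went opposite ways in the male null mice. Probe set 103223_at read 649.5 to 1035 in wild-type mice, with a median of 910.85. It read 553.6 and 569 in male null mice, below all 9 others, and 1088, 921.3 and 901.3 in female null mice. Probe set 94161_at read 76.8 to 144.4 in wild-type mice, with a median of 95.55. It read 182.7 and 292.1 in male null mice, above all 9 others, and 93.8, 81.5 and 74.1 in female null mice, of which null 5 was below the lowest wild-type mouse. Over all mice the log2 differences were −0.18 ± 0.19 (adjusted p = 0.594) and 0.54 ± 0.27 (adjusted p = 0.248). Within males they were −0.635 ± 0.188 (adjusted p = 0.0212) and 1.15 ± 0.28 (adjusted p = 0.00759), both past the threshold. Within females they were 0.33 ± 0.20 and −0.14 ± 0.30 (adjusted p = 0.995 each), and without the male null arrays 0.33 ± 0.21 and −0.14 ± 0.29 (adjusted p = 0.999 each). A gene-level direction for Prkce was therefore not given by these data.

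The second question was whether the genotype difference was the same in both sexes. Within males 4 of the 11 probe sets passed the threshold, 2 higher and 2 lower, against a background of 32.6% of all probe sets, 17.8% higher and 14.8% lower. Atp2b2 and Prkce 94161_at were higher in the male null mice, and Cacna1g and Prkce 103223_at were lower. Within females 0 of 11 passed, as did 0 of 7453 probe sets (limma; 0 of 11 and 4.13% of all probe sets had an unadjusted p under 0.05). The difference between the sexes was past the threshold for 4 of 11 probe sets, against 15.9% of all probe sets. Taken as the female value minus the male value of the log2 genotype difference, it was −1.72 ± 0.49 for Atp2b2 (SE; adjusted p = 0.031) and 1.02 ± 0.29 for Cacna1g (adjusted p = 0.0291). For Prkce it was 0.96 ± 0.27 at 103223_at (adjusted p = 0.0311) and −1.29 ± 0.41 at 94161_at (adjusted p = 0.0483). The 4 probe sets were the same ones that passed within males. Both tests come from 1 fit and share the male arrays, so this overlap is not separate evidence.

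**Figure D2:**
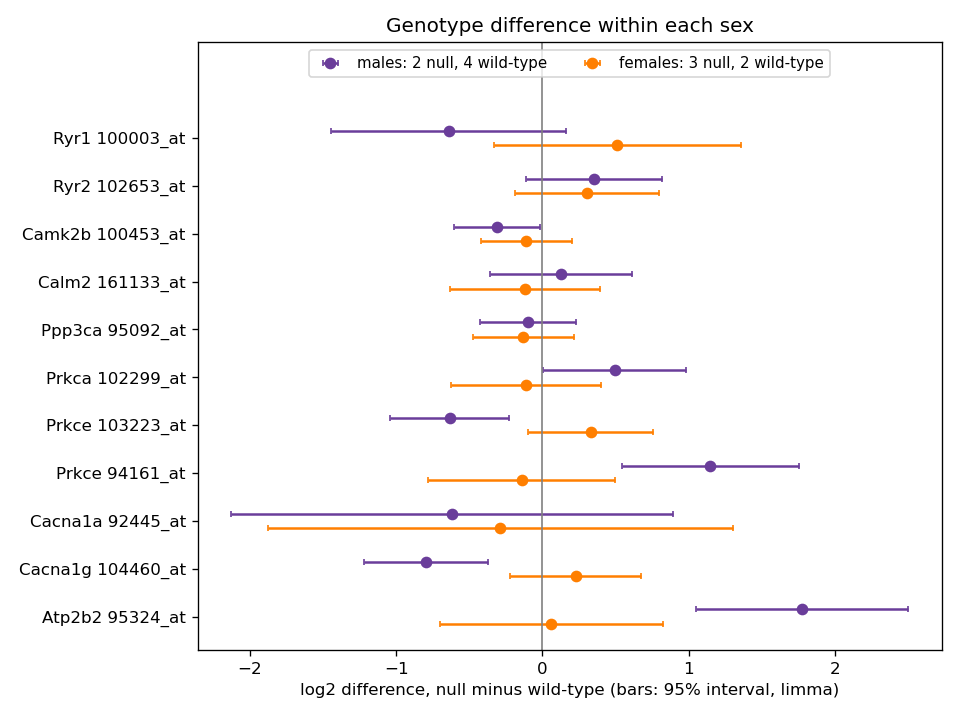
Log2 difference, null minus wild-type (horizontal axis), of each probe set within males (purple; 2 null and 4 wild-type mice) and within females (orange; 3 null and 2 wild-type mice), with 95% intervals from limma. The male intervals of Atp2b2, Prkce 94161_at, Prkce 103223_at and Cacna1g lie clear of 0 and pass the adjusted threshold; those of Camk2b and Prkca also exclude 0 but miss that threshold, and all 11 female intervals span 0.

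These calls rest on few mice. Sex in the null group coincides with the split of the arrays described above and with age, 9 weeks in males and 7 to 8 in females. Sex, age and the arrays' standing apart therefore cannot be told apart there. Within males the null mice were all B4, and the wild-type mice were B4 and LT. No probe set of the 11 passed the test between the sexes without wild-type 5, null 2, null 3 or null 4, when 6.67%, 6.2%, 11.9% and 11.6% of all probe sets did. Without null 1, 1 passed (8.71% of all), and without null 5, 2 passed (11.4%). Without wild-type 1 or wild-type 3, 3 passed (16% and 14.8%). Without wild-type 2 the count stayed at 4 (18.8%), but Prkce 94161_at lost its call (adjusted p = 0.0605) and Ryr1 gained one. The direction of all 4 was kept in each of the 11 omissions. Within males only Atp2b2 passed without null 2 (16.4% of all probe sets), and 3 passed without null 1 (17.9%). Without wild-type 2, 6 passed within males (33.3%), Ryr1 and Cacna1a besides the 4. Without null 1 or null 2 the male null arm is 1 array, as is the female wild-type arm without wild-type 3 or 5, and that array is assumed to vary like the other groups. With no filter on signal, 12422 probe sets shared the adjustment between the sexes. The 4 then missed the threshold, at adjusted p of 0.0563 to 0.118. Among B4 mice alone, 2 of 11 passed, against 8.69% of all probe sets, Cacna1g at 1.18 (adjusted p = 0.0268) and Prkce 94161_at at −1.41 (adjusted p = 0.0481). Atp2b2 stood at −1.55 (adjusted p = 0.0668) and Prkce 103223_at at 0.54 (adjusted p = 0.233). That fit has 1 female wild-type mouse, wild-type 3, again assumed to vary like the others. With the number letters as a block on all 11 arrays, the same 4 probe sets passed, at adjusted p of 0.00603 to 0.022, as did 21.2% of all.

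The 11 probe sets were also set beside the Gapdh ratio of each array. The 2 male null arrays, with the ratio below 1, held the highest signals of Atp2b2, Prkce 94161_at and Prkca and the lowest of Cacna1g and Prkce 103223_at. The 3 probe sets above and 2 below are 27.3% and 18.2% of the 11, against 20.7% and 16.5% of all probe sets. Among the other 9 arrays the ratio ran from 2.195 to 5.921, and Atp2b2 from 46.9 to 109.9. With the log2 ratio as a further covariate, the genotype difference of Atp2b2 was 0.06 ± 0.49 (SE; adjusted p = 0.998). That of Cacna1g was 0.16 ± 0.31, and those of Prkce were 0.40 ± 0.265 at 103223_at and −0.295 ± 0.368 at 94161_at (adjusted p = 0.994 each). In the test between the sexes with the ratio as a covariate, 0 of 11 probe sets and 0 of 7453 probe sets passed. In that fit Atp2b2 stood at −2.77 ± 1.10 (adjusted p = 0.522) and Cacna1g at 2.14 ± 0.57 (unadjusted p = 0.00294, adjusted p = 0.47). Prkce stood at 1.10 ± 0.65 at 103223_at and at −1.09 ± 0.96 at 94161_at. Without the ratio the SE were smaller, at 0.49, 0.29, 0.27 and 0.41 in this order. Only the male null arrays had a ratio below 1, so the fit can hardly tell the ratio from the male null group. The part of RNA quality in these differences was not tested.

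**Figure D3:**
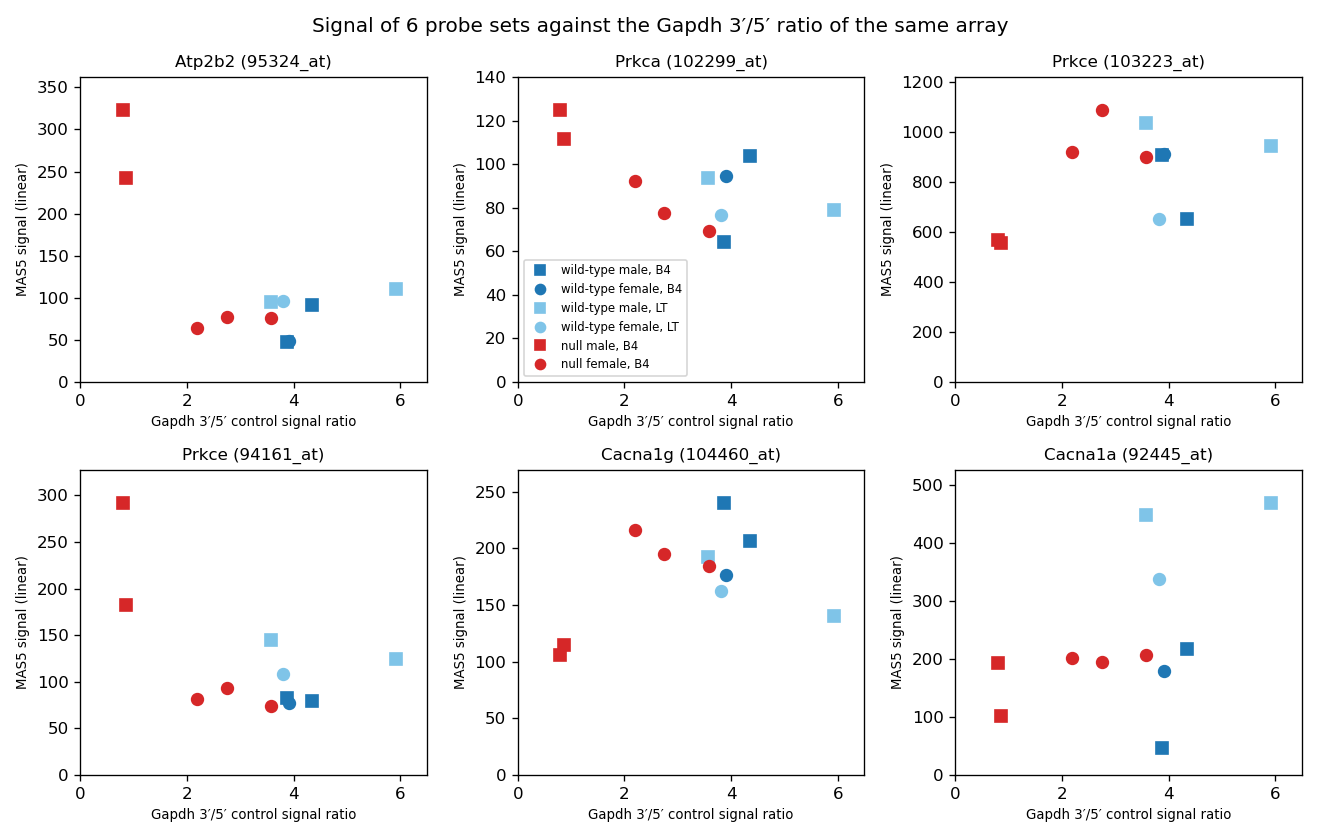
Linear MAS5 signal (vertical axis, from 0) of 6 probe sets against the 3′/5′ ratio of the Gapdh control probe sets on the same array (horizontal axis), 1 point for each of the 11 mice; red marks null mice, dark blue B4 and light blue LT wild-type mice, squares males. The 2 male null arrays sit alone at ratios of 0.797 and 0.859, and the other 9 between 2.195 and 5.921.

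The genotype difference was laid out under 4 fits. Ryr2 was above 0 in all of them, from 0.16 ± 0.265 with the Gapdh ratio to 0.335 ± 0.171 among B4 mice, and Camk2b was below 0 in all of them, from −0.22 ± 0.11 to −0.04 ± 0.17. Neither passed in any of the 4. Atp2b2 was also above 0 in all 4, from 0.06 ± 0.49 with the Gapdh ratio to 1.435 ± 0.331 among B4 mice (adjusted p = 0.0724). Ryr1, Calm2, Prkca, both Prkce probe sets and Cacna1g changed sign between the fit to all mice and the fit without male null mice.

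**Figure D4:**
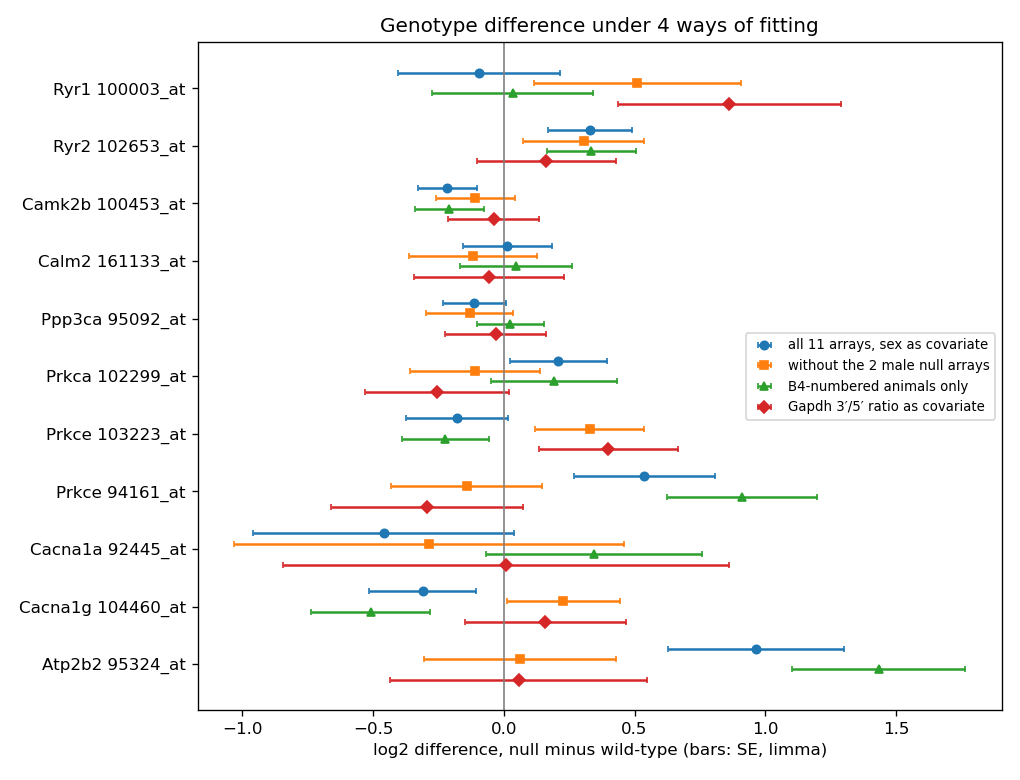
Log2 difference, null minus wild-type (horizontal axis), with SE, of each probe set under 4 limma fits: all 11 arrays with sex as a covariate, without the 2 male null arrays, B4-numbered mice only, and with the Gapdh 3′/5′ ratio as a covariate. Ryr2 and Atp2b2 stay above 0 and Camk2b below 0 in all 4, and Atp2b2 falls from 0.96 to 0.06 without the male null arrays.

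Among wild-type mice, LT values were above all B4 values in 3 of 11 probe sets, Cacna1a, Prkce 94161_at and Atp2b2, and below in 0. Over all probe sets 18.4% separated, 9.24% above and 9.16% below. Prkce 94161_at read 124.9, 108.5 and 144.4 in LT mice and 79.1, 82.6 and 76.8 in B4 mice. Atp2b2 read 109.9, 96.7 and 94.6 against 91.1, 46.9 and 49, with wild-type 1 close to the LT mice. The log2 differences, LT minus B4, were 0.65 ± 0.19 (adjusted p = 0.149) and 0.755 ± 0.274 (adjusted p = 0.239). None of the 11 passed in limma, against 0.765% of all probe sets, and 3 of 11 had an unadjusted p under 0.05, against 14.4%.

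Sex itself, with females set against males and genotype in the model, gave 0 of 11 calls, as for 0 of 7453 probe sets (limma). At an unadjusted p under 0.05 there were 2 of 11, against 12.4% of all probe sets. They were Atp2b2 at −1.06 ± 0.34 (adjusted p = 0.303) and Prkce 94161_at at −0.80 ± 0.27 (adjusted p = 0.316). In both, the 2 male null mice were the highest of the male group, and in none of the 11 did the sexes separate, against 0.403% of all probe sets.

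Other genes of the same pathways were described by lists, each gene through its brightest probe set. Of 115 listed genes 62 were on the array and 47 passed the filter. None of the 47 passed the genotype test (limma), where 0.0268% of all probe sets did; at an unadjusted p under 0.05, 10 were higher and 5 were lower, against 13.4% and 9.69% of all probe sets. The median log2 difference of the 47 was 0.03, and over all probe sets it was 0.04. Without the male null arrays it was −0.03 over the 46 genes still tested, of which 0 passed, with 3 higher and 0 lower at an unadjusted p under 0.05 (2.17% and 1.36% of all probe sets). Within males 12 passed higher and 6 lower, against 17.8% and 14.8% of all probe sets, and within females 0 passed. These shares also stand beside the counts of single lists within males that follow.

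Of voltage-gated channel subunits 6 of 23 were tested, with 2 higher and 1 lower within males. Cacnb2, an auxiliary β subunit, was at 1.05 ± 0.27 over all mice (SE; adjusted p = 0.0873), and at 0.225 ± 0.242 without the male null arrays. Cacna2d3, an α2δ subunit, was at −0.40 ± 0.16 (adjusted p = 0.17). Of the store release and store-operated entry genes, 10 of 18 were tested, with 2 lower within males. Itpr2, an inositol trisphosphate receptor, was at −0.69 ± 0.185 (adjusted p = 0.0941), and at −0.19 ± 0.19 without the male null arrays. Casq1, a calcium buffer of stores, was at 0.375 ± 0.285 (adjusted p = 0.437). Of the pumps and exchangers other than Atp2b2, 4 of 11 were tested, with 0 calls in any of these comparisons. Atp2a1 and Atp2a3, pumps of the endoplasmic reticulum, were at 0.58 ± 0.43 and −0.04 ± 0.22 (adjusted p = 0.425 and 0.921).

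Of calcineurin subunits and regulators 6 of 11 were tested and 0 passed, within males too. Nfatc3, a transcription factor that calcineurin activates, was at 0.46 ± 0.66 (adjusted p = 0.698), and Ppp3cc, a catalytic subunit, was at −0.28 ± 0.16 (adjusted p = 0.295). Of protein kinase C and phospholipase C genes 10 of 19 were tested, with 5 higher and 2 lower within males. Rasgrp1, a Ras activator bound by diacylglycerol, was at 1.19 ± 0.245 (adjusted p = 0.0773), and stayed at 0.82 ± 0.35 without the male null arrays (unadjusted p = 0.0348, adjusted p = 0.999). Marcks, a substrate of protein kinase C, was at −0.47 ± 0.14 (adjusted p = 0.109). Of calcium-buffering and sensor proteins 9 of 16 were tested, with 4 higher within males. S100a1 was at 0.82 ± 0.25 (adjusted p = 0.109) and at 0.10 ± 0.26 without the male null arrays, and S100b, an astrocyte protein, was at −0.04 ± 0.13 (adjusted p = 0.87). Of calmodulin and its regulators 2 of 6 were tested, with 1 higher and 1 lower within males. Of the other calmodulin-dependent kinases 3 of 11 were on the array and 0 passed the filter on signal.

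**Figure D5:**
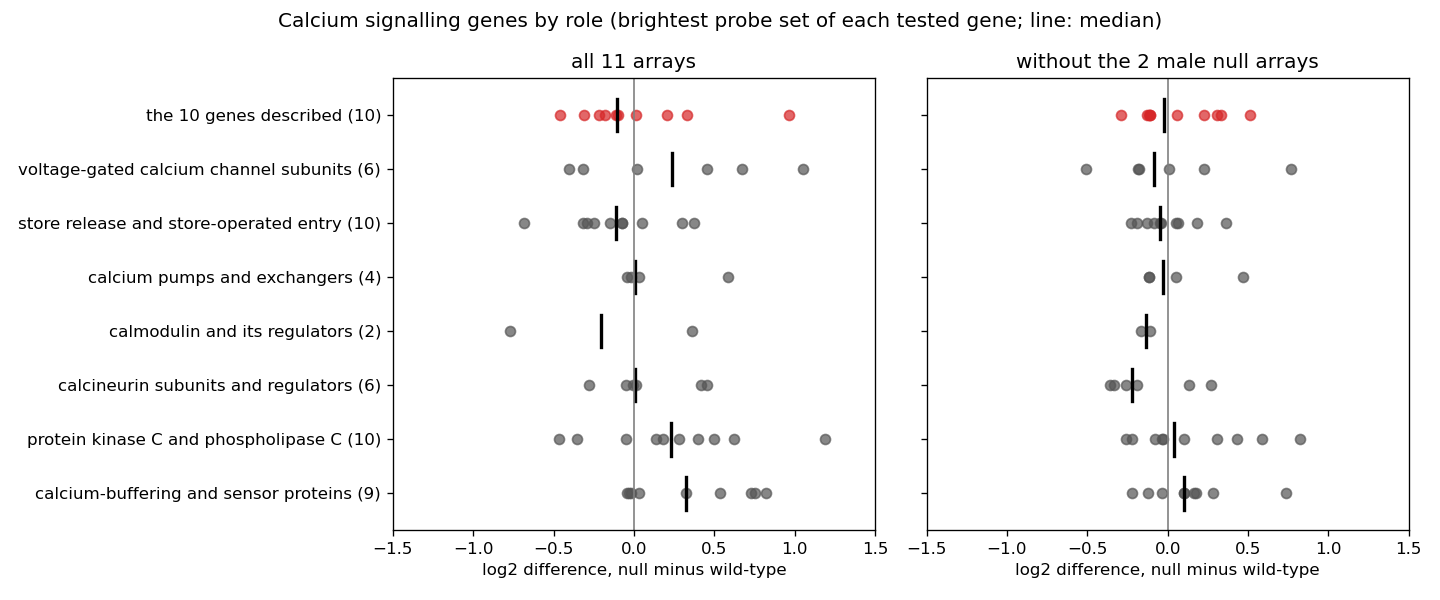
Log2 difference, null minus wild-type (horizontal axis), of each tested gene of the calcium lists, over all 11 arrays (left) and without the 2 male null arrays (right); 1 point is 1 gene, red the 10 genes described, the black line is the list's median and the number of genes is in brackets. No gene passes the adjusted threshold in either panel, and the points range from −0.77 to 1.19 at the left and from −0.51 to 0.82 at the right.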

How the data were processed

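Whole-brain RNA of 11 mice was isolated with TRI Reagent, cleaned on RNeasy columns and labelled with biotin by an Enzo kit, per the labels' protocols. The deposited table holds linear signal intensity, computed by the authors in MAS5, as the submitters' processing notes say; its version and target scaling are not given in the sources used here. The 2% trimmed mean was 150.1 on every array, so the arrays had been scaled to a common level. Medians ran from 43.6 to 58.3. Precision is limited by the number of arrays.

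Values under the 10th percentile (3.1) were raised to it and log2 was taken. Probe sets with a mean log2 signal under the 40th percentile (4.69) and 66 control probe sets were left out, and 7453 were tested. Filters that use all arrays let a probe set pass through 1 group. Differences were fitted in limma 3.58.1 (R 4.3.3; lmFit, eBayes with trend), for genotype (null minus wild-type, adjusted for sex), for sex (female minus male, adjusted for genotype), and with 1 mean for each genotype and sex for the tests within and between the sexes. P-values were adjusted by Benjamini-Hochberg over all probe sets tested, with a threshold of 0.05. Folds are 2 to the power of the log2 difference. The code was tested on simulated data. The p-values set a difference between groups against the spread between arrays within groups. Nothing says that the arrays come from separate preparations, so they hold for these 11 samples and do not account for arrays prepared together.

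Gene names are those of the platform annotation: 10855 probe sets had 1 gene symbol, 396 several and 1237 none. Named were every probe set of the 10 genes and, of each pathway list with 3 or more tested genes, the gene with the highest and the one with the lowest genotype difference. The genes and lists were chosen with earlier results of these data known. The alternatives were other scalings, floors, filters and covariates, subsets of mice, and leaving out each mouse. The test of LT against B4 mice and the interaction fits among B4 mice, with the letters as a block and with the Gapdh ratio were chosen after seeing the data.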

Additional observations from a re-analysis of the deposited data

Results flagged for a closer look

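Among the 22 groups of values looked at (11 probe sets in 2 genotypes), 1 held a sample far from the others, and chance flags about 1 in 20 groups. It was Cacna1a in null 1, a male, at a signal of 101.6 against 192.6 to 206.1 in the other 4 null mice. On the log2 scale the gap to the nearest value was 0.904 of the group's range.

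In 4 of the 11 probe sets the genotype difference passed the threshold between the sexes (limma), as did 15.9% of all probe sets. As the log2 difference in females minus that in males it was 0.964 for Prkce 103223_at, −1.291 for Prkce 94161_at, 1.024 for Cacna1g and −1.716 for Atp2b2. With no signal filter none of the 11 passed. None passed without null 3 or null 4 either, when 11.9% and 11.6% of all probe sets did. The null males among these mice are the 2 arrays with the low 3′ to 5′ ratios of Gapdh and β-actin, and they were older than the null females. In the null group sex, age and array cannot be told apart.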

How the results depend on the processing

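No paired analysis was possible because the labels give the mice no shared replicate numbers. The 11 arrays, 2 of them from male null mice, and unequal sexes limit what could be detected; probe sets near the filter, such as Ryr1, are the least precise. Other scalings moved the median of all probe sets within males from 0.05 to −0.08 (quantile normalization) and −0.23 (median centring), and between the sexes from −0.02 to 0.09 and 0.20. The share of calls that were higher went within males from 54.7% to 44% and 27.6%, and between the sexes from 45.5% to 53.8% and 68.3%.

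Past the threshold for genotype were 2 probe sets, against 1 under quantile normalization, median centring or no covariate, 0 with no signal filter, with age, with the Gapdh ratio, without the male null arrays or in females only, and 29 among B4 mice. No count included 1 of the 11 described here. The sign of the genotype difference turned for Calm2 (quantile −0.154, median centring −0.167, no covariate −0.013) and Atp2a3 (no covariate 0.021). With age it turned for Ryr1 (0.276), Ppp3ca (0.041), Prkce 103223_at (0.08), Cacna1a (0.426) and S100b (0.094). With the number letters as a block it turned for Ryr1 (0.141), Ppp3ca (0.021), Cacna1a (0.421) and S100b (0.037). Among B4 mice it turned for Ryr1 (0.035), Ppp3ca (0.025), Cacna1a (0.345) and S100b (0.038), and Rasgrp1 passed at 1.477. Without the male null arrays and in females only it turned to the same values for Ryr1 (0.511), Calm2 (−0.117), Prkca (−0.11), Prkce (0.329 at 103223_at, −0.142 at 94161_at), Cacna1g (0.228), Casq1 (−0.131) and Nfatc3 (−0.357, no longer past the filter). With the Gapdh ratio it turned for Ryr1 (0.863), Calm2 (−0.057), Prkca (−0.255), Prkce (0.4 and −0.295), Cacna1a (0.009), Cacna1g (0.158), Nfatc3 (−0.565) and S100a1 (−0.088). Of the turned values none passed the threshold, and the cause was not tested.

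For sex, 3 probe sets passed with no signal filter. Between the sexes, calls among the 11 fell from 4 to 0 with no signal filter, where 12422 probe sets shared the adjustment, to 2 among B4 mice (648 over all probe sets) and to 0 with the Gapdh ratio (0 over all), where Atp2b2 stood at −2.773, Cacna1g at 2.136 and Prkce at 1.096 and −1.086 with wider errors. Prkce 94161_at lost its call under quantile normalization (adjusted p = 0.0556) and median centring (0.0882). Within males Prkce 103223_at lost its call with no signal filter (adjusted p = 0.056). Within females 1 probe set passed under median centring, where Atp2b2 stood at −0.004.

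Leaving out each mouse gave 1 to 873 calls for genotype (with wild-type 5 left out it was 873, with wild-type 3 it was 199, with null 5 it was 9, and otherwise 1) and 0 to 1 among the 11. It gave 0 to 32 calls for sex (32 without wild-type 5), 462 to 1403 between the sexes (462 without null 2, 497 without wild-type 5, 649 without null 1) and 0 to 4 among the 11. Within males it gave 1219 to 2485 (1219 without null 2, 1334 without null 1) and 1 to 6 among the 11, and within females 0 to 4 and 0. Genotype differences that turned ranged from −0.278 to 0.076 (Ryr1), −0.066 to 0.06 (Calm2), −0.174 to 0.079 (Atp2a3) and −0.114 to 0.002 (S100b). Within females they ranged from −0.261 to 0.041 (Prkca), −0.391 to 0.108 (Prkce 94161_at) and −0.429 to 0.551 (Atp2b2). The 2 other floors, at the 20th percentile or log2 of signal plus 16, turned no sign and moved no call for genotype.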
